A study of Glycine max with 26 samples.

Results

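The mean transcript levels of developing soybean seeds were compared between the second and the first day of sampling in constant light. The comparison used 24 of the 26 arrays of the series. The second day comprised the 12 arrays of seeds taken at 48, 52, 56, 60, 64 and 68 h of constant light, and the first day the 12 arrays of seeds taken at 24, 28, 32, 36, 40 and 44 h. Each second-day time was matched with the time 24 h before it, at the same phase of the day, so that a daily rhythm shared by both days does not enter the difference. The arrays of the last time, 72 h, belong to neither day and were left out. A difference here is therefore one of mean level over 6 phases, not of amplitude.

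Both groups were whole seeds with their coats from the cultivar Williams 82, at 5 weeks after flowering, with no mutant or chemical treatment. The plants had grown in 12 h of light and 12 h of dark at 25 °C, and the switch to continuous light was made at subjective dawn, the time at which the lights would have come on. The labels give the same age in weeks for both days, so that the days differ by label only in the time spent in constant light. No label states whether the seeds of both days were of the same age to the day. A further day of development and a further day in constant light cannot be told apart here. Every array was hybridised with RNA of a pool of 8 seeds from 3 plants, and each time had 2 such replicates. No label states whether both replicates of a time were taken from separate plants. The p-values below therefore reflect the scatter among these pools, some of which may be technical. In the comparison of mean levels, they also take in how the day difference varied between phases.

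A clock-driven transcript in constant light keeps cycling around a mean, and that mean can itself drift over days. Soybean seeds at this stage fill with storage protein and oil, after which they pass into maturation, when late embryogenesis abundant proteins, among them the dehydrins, accumulate and protect cells during drying. Small cysteine-rich peptides of the GASA family, named for their response to gibberellin, take part in growth and in seed development in several plants.

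Of the 16383 probe sets in the table, 11481 (70.1%) averaged more than 4 on the log2 scale across the 26 arrays and were tested. Pairs among the 24 arrays compared had an r of between 0.972 and 0.996 over these probe sets. The lowest signal on an array separated the arrays into 13 of low floor (1.54 to 2.04) and 13 of high floor (2.40 to 3.02), with 1 of each at every time, so that each day held 6 of each. The array median over the tested probe sets was 7.56 ± 0.11 on the second day and 7.58 ± 0.06 on the first day (SD, n = 12 each). On the low floor arrays it was 7.51 ± 0.12 on the second day and 7.58 ± 0.06 on the first day, whereas on the high floor arrays it was 7.60 ± 0.09 on the second day and 7.57 ± 0.06 on the first day (SD, n = 6 each). Markers of the embryo were high on both days, as seen for the glycinin gene GY1 with 16.09 to 16.38 on the second day and 16.09 to 16.52 on the first day. Markers of the seed coat were also present, such as HPS, the hydrophobic seed protein, with 13.82 to 14.75 on the second day and 13.60 to 14.32 on the first day. The beta-conglycinin probe set CG-1 lay below the filter on both days. Of the leaf or pod markers, CAB3, a chlorophyll a/b binding protein, read 14.55 to 15.42 on the second day and 14.35 to 15.36 on the first day, VSPB lay below the filter, and VSPA is described with the lower transcripts.

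**Figure D1:**
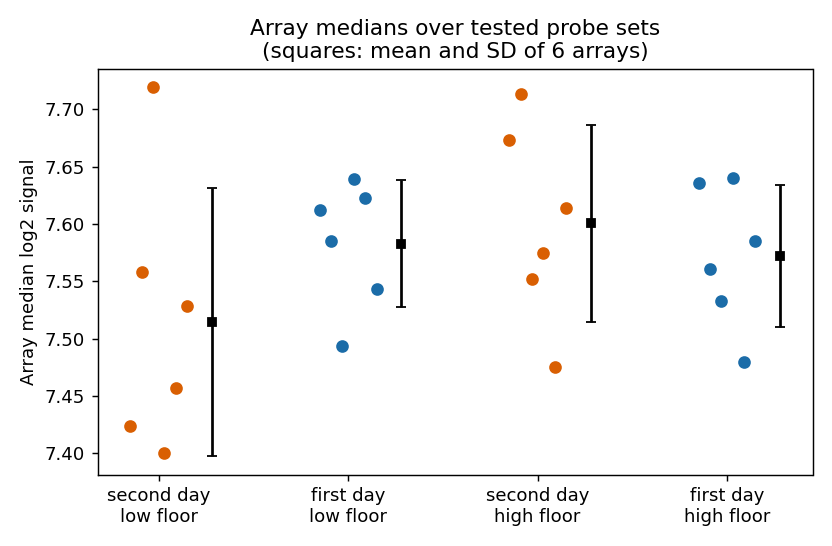
Median log2 signal of each array over the 11481 tested probe sets, in the second-day and first-day arrays of low and of high floor; squares with bars are the mean and SD of 6 arrays. The second-day mean lies below the first-day mean on the low floor arrays (7.51 against 7.58) and above it on the high floor arrays (7.60 against 7.57).

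Mean levels were nearly the same on both days. The gene with the largest difference was GASA4, whose mean signal was 2.47-fold higher on the second day without passing the test, followed among named genes by the related GASA9 and GASA29. Storage protein and ribosomal protein genes differed by little, and only 2 genes of the clock list were tested. No probe set differed in mean level between the second and the first day at an adjusted p of 0.05 (limma, Benjamini-Hochberg over 11481 probe sets), a called share of 0%, with 0.374 as the smallest adjusted p. An unadjusted p below 0.05 was reached by 646 probe sets (5.63%), of which 280 (2.44%) were higher and 366 (3.19%) lower on the second day. The median difference over all tested probe sets was -0.02 log2, with 4882 differences above 0 and 6599 below it. The split between directions depended on the scaling: with quantile normalization 508 were higher and 380 lower, and with each array centred on its median 554 were higher and 319 lower. It also differed between the array groups, with 374 higher and 855 lower within the low floor arrays and 981 higher and 430 lower within the high floor arrays, and 0 called in either. The sign of the difference was the same within both array groups for 4231 probe sets (36.9%).

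The differences were small and mostly well bounded. The median absolute difference was 0.06 log2, and the 95th percentile was 0.23. The 95% interval of the difference lay within 1 log2 unit of 0, a 2-fold change either way, for 11441 probe sets (99.7%), and within 0.5 log2 for 10673 (93%). Only GASA4 had a fitted difference above 2-fold, and no probe set had one below. The sign was the same in all 6 phases for 326 probe sets, 146 of them higher and 180 lower on the second day. There were 0 probe sets (0%) whose 12 second-day arrays all lay above or all below the 12 first-day arrays.

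GASA4, a gibberellin-regulated peptide gene, had the largest difference. Its log2 signal ran from 12.22 through a median of 12.91 to 13.41 on the second day, and from 9.84 through a median of 11.51 to 13.09 on the first day. The second-day arrays were close together, while the first-day arrays spread over more than 3 log2 units, and the groups overlapped. The means were 12.91 ± 0.36 on the second day and 11.61 ± 1.13 on the first day (SD, n = 12 each), a difference of 1.30 ± 0.26 log2 (SE; 2.47-fold; limma adjusted p = 0.374). It was above 0 in 6 of 6 phases, and was 1.37 within the low floor arrays and 1.24 within the high floor arrays. GASA4 did not pass the test in 44 of 46 alternative analyses, with a limma adjusted p of up to 0.999, and passed in 2. Some of the 46 leave its difference unchanged by design, as given in the closing section. With the mean of the maturation protein genes of each array as a covariate, GASA4 passed (limma adjusted p = 0.0327) with a difference of 1.15 log2. That gene list was chosen with earlier results of these data known. It also passed when the array group was taken as a block and the arrays were centred on their medians together (limma adjusted p = 0.0392); that last alternative was chosen after seeing the data.

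The low first-day values of GASA4 came from its earlier times, a pattern noticed after the values were seen and described here without a test. The 8 arrays of 24 to 36 h lay between 9.84 and 11.77, the 4 arrays of 40 and 44 h between 12.53 and 13.09, and the 12 arrays of the second day between 12.22 and 13.41. Matched by phase, the difference was 1.10 at dawn, 2.50 at 4 h, 2.43 at 8 h, 1.47 at 12 h, 0.32 at 16 h and 0.01 at 20 h. The level at the end of the first day was thus already that of the second day. The spread of these differences between phases is part of the SE of the mean-level difference.

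GASA9 and GASA29, of the same family, had the next largest positive differences among the named genes. GASA9 ran from 11.51 through a median of 11.95 to 12.72 on the second day, against 10.04 through 11.41 to 12.18 on the first day, with a difference of 0.72 ± 0.19 log2 (SE; limma adjusted p = 0.809). GASA29 ran from 9.71 through a median of 10.49 to 11.60 on the second day, against 8.93 through 9.97 to 10.86 on the first day, with a difference of 0.68 ± 0.21 log2 (SE; limma adjusted p = 0.809). In both, the groups overlapped, and the lowest arrays were those of 28 and 32 h. Phase by phase, the difference of GASA9 was largest at 4 h (1.79) and 8 h (1.33) and was -0.01 at 20 h, and that of GASA29 was 1.97 at 4 h, 1.04 at 8 h and 0.04 at 20 h.

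GASA3 had the smallest p of the named genes with lower levels on the second day. It ran from 9.63 through a median of 9.99 to 10.46 on the second day, and from 10.05 through 10.34 to 10.55 on the first day. The second-day arrays reached below all first-day arrays, but the ranges overlapped above 10.05. The means were 10.01 ± 0.27 on the second day and 10.31 ± 0.15 on the first day (SD, n = 12 each), a difference of -0.31 ± 0.07 log2 (SE; limma adjusted p = 0.686), with a negative sign in all 6 phases and within both array groups (-0.34 and -0.27). The remaining members of the family stood near 0. GASA13 differed by -0.01, GASA34 by -0.10, GASA22 by 0.04 and GASA12 by -0.04 log2, and the probe sets of GASA27 by 0.14 and 0.00. Over the 10 probe sets of the gibberellin list, 3 were higher and 1 lower at an unadjusted p below 0.05, where the shares over all tested were 2.44% and 3.19%. The list's median difference was 0.02, against -0.02 over all tested.

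**Figure D2:**
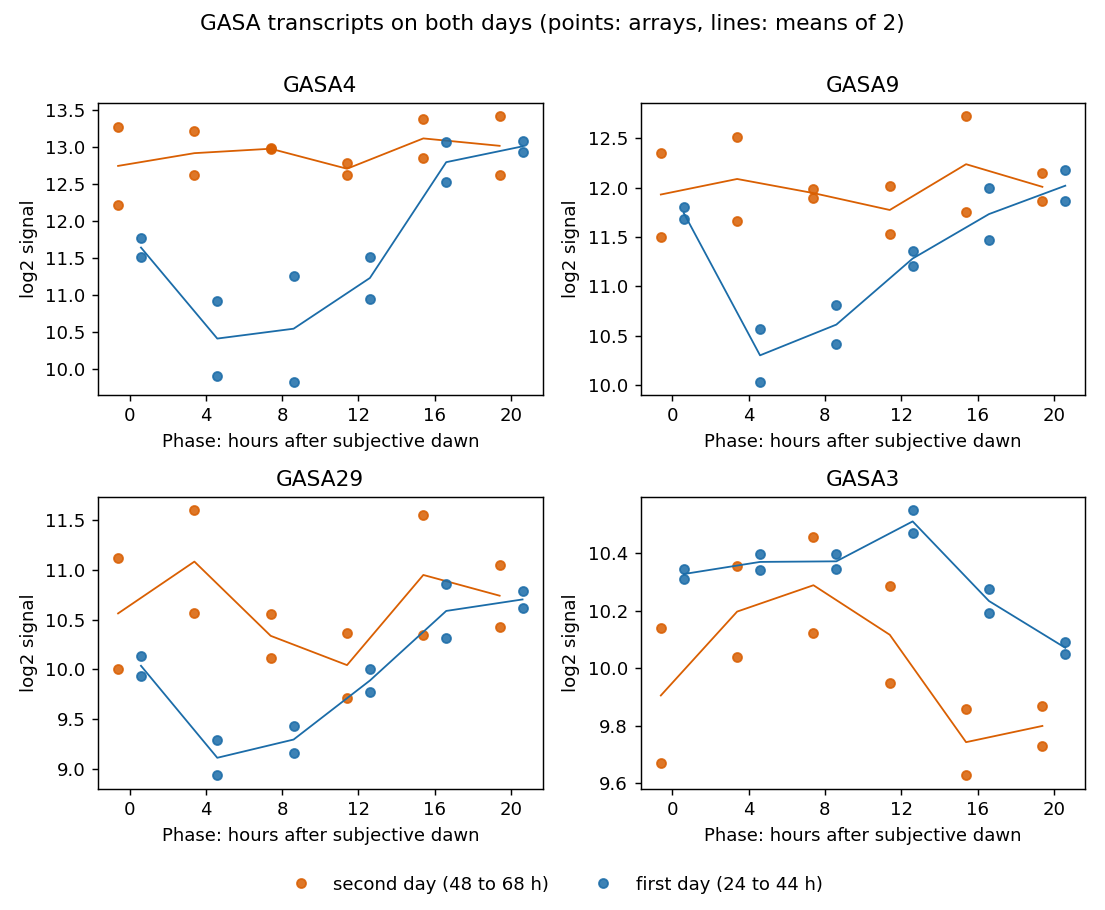
Log2 signal of 4 GASA genes against phase in hours after subjective dawn, on the second day (left of each tick) and the first day (right); points are arrays and lines join means of 2. First-day arrays of GASA4 from 24 to 36 h lie between 9.84 and 11.77, below all 12 second-day arrays, which lie between 12.22 and 13.41, and the days meet at the last phases.

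Genes were named in each direction as the 12 of smallest p among those with the same sign of the difference in at least 5 of the 6 phases. In the higher direction these were 9 genes beside the GASA genes, and none of the 12 passed the test (limma adjusted p of 0.374 to 0.836). All 12 had a positive difference within both array groups, which the choice by p favours, and 6 had it in all 6 phases, where at least 5 were required. Genes of nitrogen metabolism formed part of the set. UR2, a uricase, which breaks down urate from purines, ran from 11.78 through a median of 12.22 to 12.59 on the second day and from 11.35 through 11.93 to 12.33 on the first day, a difference of 0.32 ± 0.11 log2 (SE). Its groups overlapped, and its difference was 0.55 within the low floor arrays and 0.09 within the high floor arrays. The glutamine synthetase genes GS1-GAMMA and GS, which fix ammonium, differed by 0.43 ± 0.16 and 0.23 ± 0.09 log2 (SE). GAD, glutamate decarboxylase, differed by 0.35 ± 0.13 log2 (SE).

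Peroxidase genes were among the higher ones with the narrowest intervals. PRX3 ran from 11.72 through a median of 12.01 to 12.18 on the second day and from 11.47 through 11.76 to 11.90 on the first day, a difference of 0.23 ± 0.06 log2 (SE; 95% interval 0.10 to 0.36), positive in all 6 phases. Ep, the seed coat peroxidase, ran from 13.30 through 13.71 to 14.10 on the second day and from 13.03 through 13.55 to 13.70 on the first day, a difference of 0.19 ± 0.07 log2 (SE), also positive in all 6 phases. Both pairs of groups overlapped. In whole seeds, a higher share of coat in the pool and more of the transcript per cell cannot be told apart, and this holds for every gene described here. Of the other seed coat markers, HPS differed by 0.17 and PRP2 by -0.11 log2, and SC514 by -0.03, and the part of the coat in the result for Ep was not tested. GST3, a glutathione transferase, differed by 0.40 ± 0.14, the cupin gene Gmcupin02.3 by 0.35 ± 0.13 and EN2 by 0.33 ± 0.13 log2 (SE).

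In the lower direction, 11 genes beside GASA3 were named by the same rule, and again none passed (limma adjusted p of 0.686 to 0.848). Among the genes the rule left out were MYB177 and BBI-2, which had a smaller p than some of the 12 but were lower in only 4 of 6 phases, and which are given with their lists. The sign was the same within both array groups for 11 of the 12, and in all 6 phases for 6. NIP1-8, a nodulin-26-like channel protein, ran from 7.71 through a median of 8.18 to 8.49 on the second day and from 8.14 through 8.48 to 8.73 on the first day, a difference of -0.22 ± 0.06 log2 (SE). ACCA-1, a subunit of plastid acetyl-CoA carboxylase, which makes malonyl-CoA for fatty acids, ran from 7.47 through 7.94 to 8.30 on the second day and from 7.86 through 8.18 to 8.34 on the first day, a difference of -0.22 ± 0.07 log2 (SE). The ranges overlapped in both genes, with the lowest array on the second day.

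VPE, the vacuolar processing enzyme that cleaves storage protein precursors, ran from 12.14 through a median of 12.36 to 12.57 on the second day and from 12.20 through 12.51 to 12.73 on the first day, a difference of -0.13 ± 0.05 log2 (SE), negative in all 6 phases. The groups overlapped, with 6 of the 12 first-day arrays above all second-day arrays. ITPK3, an inositol phosphate kinase, differed by -0.14 ± 0.07 and VSPA, a vegetative storage protein, by -0.34 ± 0.17 log2 (SE). The interval of VSPA reached above 0 (-0.69 to 0.01). GH differed by -0.27 ± 0.08, AMS1 by -0.17 ± 0.07 and PTP1, a protein tyrosine phosphatase, by -0.17 ± 0.08 log2 (SE). The transcription factor gene BZIP117 differed by -0.19 ± 0.08 and the cupin gene GmCUPIN16.1 by -0.25 ± 0.12 log2 (SE). NDHK, a subunit of the chloroplast NAD(P)H dehydrogenase, was the exception among the 12, with a difference of -0.33 ± 0.14 log2 (SE). This difference was -0.72 within the high floor arrays but 0.07 within the low floor arrays. A second NDHK probe set, of weaker signal, differed by -0.05 ± 0.41 log2 (SE).

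**Figure D3:**
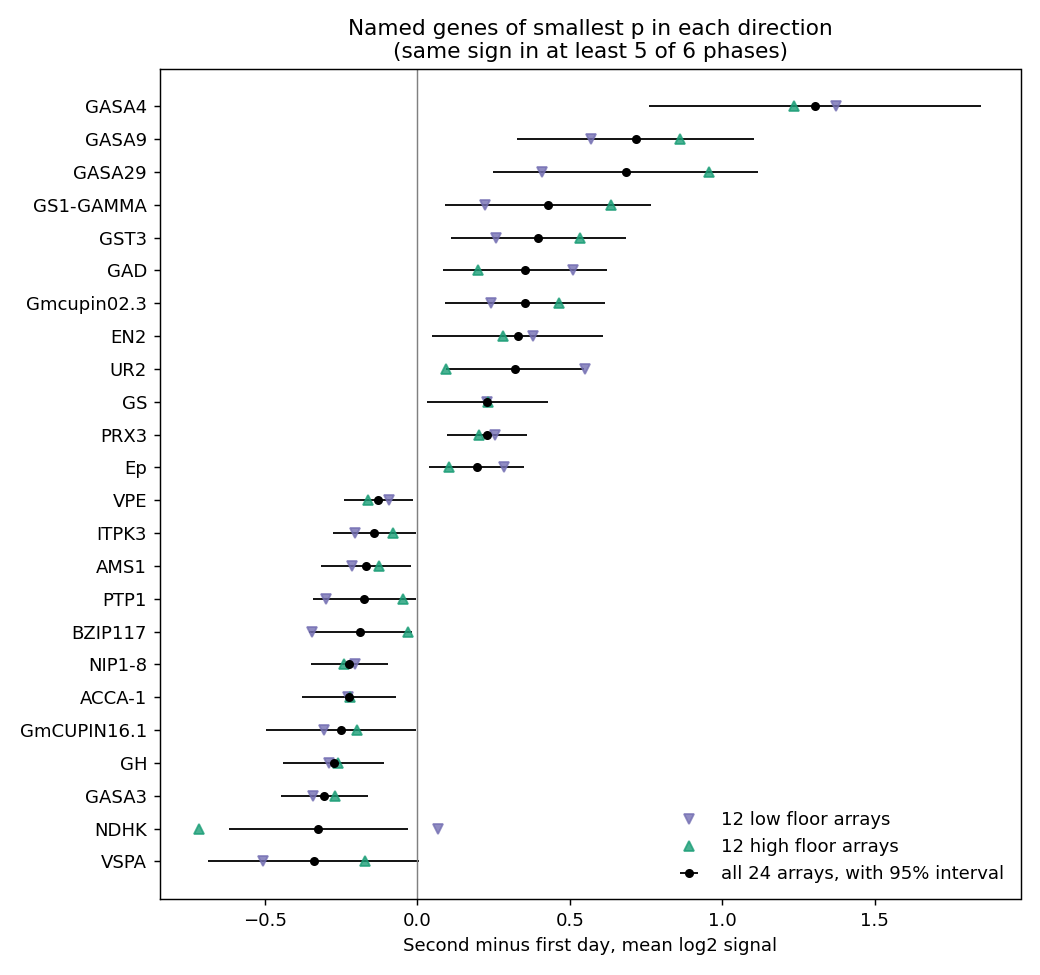
Difference in mean log2 signal, second minus first day, for the 12 named genes of smallest p in each direction among those with the same sign in at least 5 of 6 phases, with the 95% interval from all 24 arrays (points and bars) and the differences within the 12 low floor and 12 high floor arrays (triangles). GASA4 at 1.30 lies farthest from 0, and NDHK is the single gene whose triangles lie on opposite sides of 0 (0.07 and -0.72).

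Gene lists of seed biology showed little difference in mean level. Among 11 probe sets of seed storage proteins, 0 were higher and 0 lower at an unadjusted p below 0.05, where the shares over all tested were 2.44% and 3.19%, and their median difference was -0.00 log2. GY3, a glycinin, ran from 12.99 through a median of 13.55 to 14.07 on the second day and from 12.47 through 13.58 to 13.96 on the first day. GY3 differed by 0.14 ± 0.14 and GY7 by -0.13 ± 0.13 log2 (SE), and the ranges overlapped. The 7 protease inhibitor probe sets all had negative differences with a median of -0.02, the same as over all tested. The Bowman-Birk inhibitor gene BBI-2 stood apart in the list at -0.58 ± 0.25 log2 (SE; limma adjusted p = 0.848), with 3.95, 5.49 and 6.52 as lowest, median and highest signal on the second day and 4.53, 5.88 and 7.38 on the first day. The trypsin inhibitor gene KTI-2 differed by -0.12 ± 0.08 log2 (SE).

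The 34 probe sets of maturation and desiccation proteins were below 0 in 33 cases, where 6599 of 11481 were below 0 over all tested. Their median difference was -0.09 log2, but 0 of them passed an unadjusted p of 0.05 in either direction. The mean over the list was 11.79 ± 0.31 on the second day and 11.88 ± 0.34 on the first day (SD, n = 12 each), with 11.26 to 12.34 on the second day against 11.32 to 12.37 on the first day. The biotinylated protein gene SBP65 differed by -0.27 ± 0.16 and PARP3, a poly(ADP-ribose) polymerase, by -0.16 ± 0.10 log2 (SE). The list's median was 0.01 within the low floor arrays and -0.14 within the high floor arrays. Oil and fatty acid genes held 0 higher and 1 lower of 19 probe sets, ACCA-1, with a median of 0.02. The thioesterase gene FAT1 differed by -0.06 ± 0.05 log2 (SE).

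Genes of the chloroplast showed positive differences in 14 of 15 probe sets, where 4882 of 11481 were positive over all tested. Their median was 0.11 log2. At an unadjusted p below 0.05, 3 were higher and 0 lower, where the shares over all tested were 2.44% and 3.19%. The 15 probe sets came from 10 genes, and with 1 probe set per gene 2 were higher. PSAD, a photosystem I subunit, ran from 12.08 through a median of 12.29 to 12.54 on the second day and from 11.96 through 12.17 to 12.47 on the first day, a difference of 0.11 ± 0.05 log2 (SE), positive in all 6 phases, and FBP, a fructose bisphosphatase, differed by 0.20 ± 0.09 log2 (SE). The groups overlapped in both, and neither passed the adjusted test. The list's median was 0.10 within the low floor arrays and 0.12 within the high floor arrays. CAB3 differed by 0.07 log2 (limma adjusted p = 0.943).

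For the clock and light lists, few members were measured. LHY, a morning transcription factor of the plant clock, ran from 3.92 through a median of 4.61 to 5.35 on the second day and from 4.25 through 4.66 to 5.66 on the first day, a difference of -0.16 ± 0.14 log2 (SE). These signals lie close to the filter at 4, and the ranges overlapped. By phase the difference of LHY ran from -0.84 at 4 h to 0.21 at 12 h. A second LHY probe set differed by -0.05 ± 0.12 log2 (SE). COL10, a CONSTANS-like gene, differed by 0.01 ± 0.09, the cryptochrome gene GmCRY1c1 by 0.06 ± 0.14 and COP10, of the light-signalling COP group, by -0.02 ± 0.06 log2 (SE). Their signs changed with the arrays used, as given in the closing section. None of the 3 probe sets of the clock list, nor of the 3 of the light list, reached an unadjusted p of 0.05.

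Metabolic and transport lists held scattered members at an unadjusted p below 0.05, where 2.44% of all tested were higher and 3.19% lower. Nitrogen metabolism had the largest list median, 0.22 log2 over 6 probe sets, with 3 higher and 0 lower. That median was 0.23 within the low floor arrays and 0.08 within the high floor arrays, where the lists of nodulins (0.16), cell division (0.13) and the chloroplast (0.12) had larger ones. The 5 nodulin probe sets were all above 0 (median 0.14; 2 higher), one of them UR2, which is in both lists, and NOD33, which differed by 0.23 ± 0.11 log2 (SE). Aquaporins had 2 higher and 1 lower of 27 (median 0.04), among them the plasma membrane channel gene PIP2-9 at 0.22 ± 0.10 log2 (SE). The kinases that phosphorylate phosphoenolpyruvate carboxylase, PPCK3 and PPCK2, differed by 0.16 ± 0.07 and 0.15 ± 0.07 log2 (SE), the 2 higher members of a list of 9 (median 0.07). Lipoxygenases had none in either direction of 11 (median 0.01). LOX9, which oxidises polyunsaturated fatty acids, differed by 0.47 ± 0.24 and LOX7 by 0.35 ± 0.37 log2 (SE).

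Flavonoid and isoflavonoid genes, some of which serve seed coat pigments, had none of 27 probe sets in either direction at an unadjusted p below 0.05 (median -0.00). PAL2.1, phenylalanine ammonia-lyase at the entry of the pathway, differed by -0.24 ± 0.12 and 4CL1, 4-coumarate CoA ligase, by 0.28 ± 0.15 log2 (SE). Sugar transport and starch genes had none of 6 (median 0.02). SWEET17 was at 0.25 ± 0.14 and the sucrose transporter gene SUT1 at 0.14 ± 0.11 log2 (SE). A second SUT1 probe set, of weaker signal, was at 0.01 ± 0.10 log2 (SE). Lists tied to detoxification and to the coat were also close to the median of all probe sets. Over all tested, 2.44% were higher and 3.19% lower at an unadjusted p below 0.05. Glutathione transferases had 2 higher and 0 lower of 26 (median -0.02), with GSTL7 at -0.14 ± 0.07 log2 (SE). Antioxidant enzymes had 1 higher, PRX3, of 14 (median 0.04), with the iron superoxide dismutase gene SODB2 at 0.12 ± 0.06 log2 (SE). Seed coat and wall proteins had 1 higher, Ep, of 12 (median -0.03).

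Regulatory lists had medians near 0, and the counts given are again at an unadjusted p below 0.05, where 2.44% of all tested were higher and 3.19% lower. The bZIP factors had 0 higher and 1 lower of 40 (median -0.04), with BZIP132 at -0.11 ± 0.05 log2 (SE). MYB factors had 1 in each direction of 28 (median -0.04), MYB57 at 0.29 ± 0.13 and MYB177 at -0.27 ± 0.09 log2 (SE). NAC and WRKY factors had 2 higher and 0 lower of 24 (median 0.01, or -0.06 with 1 probe set per gene). Both higher probe sets were of NAC14, at 0.23 ± 0.10 and 0.21 ± 0.10 log2, and NAC6 was at -0.24 ± 0.16 log2 (SE). These families are transcription factors with roles in seed and stress regulation, and none of their members passed the adjusted test. Heat shock and chaperone genes had 1 higher of 20 (median -0.01), the protein disulphide isomerase gene PDIM-1 at 0.20 ± 0.09 log2 (SE), with PDIL-1 at 0.15 ± 0.07. Both isomerases help storage proteins fold in the endoplasmic reticulum. The water stress list had none of 6 (median -0.02), with DREB3 at 0.14 ± 0.11 log2 (SE). Calmodulins and 14-3-3 proteins had none of 18 (median 0.07), with the 14-3-3 genes SGF14G at 0.12 ± 0.06 and GF14C at 0.08 ± 0.05 log2 (SE). These proteins bind phosphorylated partners or calcium. The auxin and ethylene list had 0 higher and 1 lower of 11 (median 0.02), with the ethylene receptor gene ETR2 at 0.07 ± 0.07 log2 (SE). The lower member, GH, was taken by its symbol alone, and nothing in the annotation used shows it to be an auxin or ethylene gene. The vegetative storage and defence list had none of 5 (median -0.03), with RAR1-1 at 0.03 ± 0.05 log2 (SE).

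Genes often taken as references differed little. The ribosomal protein genes RPL2 and RPS13 differed by 0.04 ± 0.04 and 0.03 ± 0.05 log2 (SE), and none of 6 such probe sets reached an unadjusted p of 0.05 (median 0.02). RPL2 ran from 12.67 through a median of 12.72 to 12.87 on the second day and from 12.59 through 12.73 to 12.75 on the first day. TUBB, a beta tubulin, differed by 0.10 ± 0.06 and the elongation factor gene EF1BGAMMA4 by 0.08 ± 0.05 log2 (SE), with none of 10 in the cytoskeleton and housekeeping list (median 0.07). Cell division had a median of 0.21 over 5 probe sets of 2 genes, and none reached an unadjusted p of 0.05. PCNA, the sliding clamp of DNA replication, ran from 7.95 through 8.20 to 8.60 on the second day and from 7.63 through 7.95 to 8.62 on the first day, and CDC48 differed by -0.04 ± 0.06 log2 (SE).

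**Figure D4:**
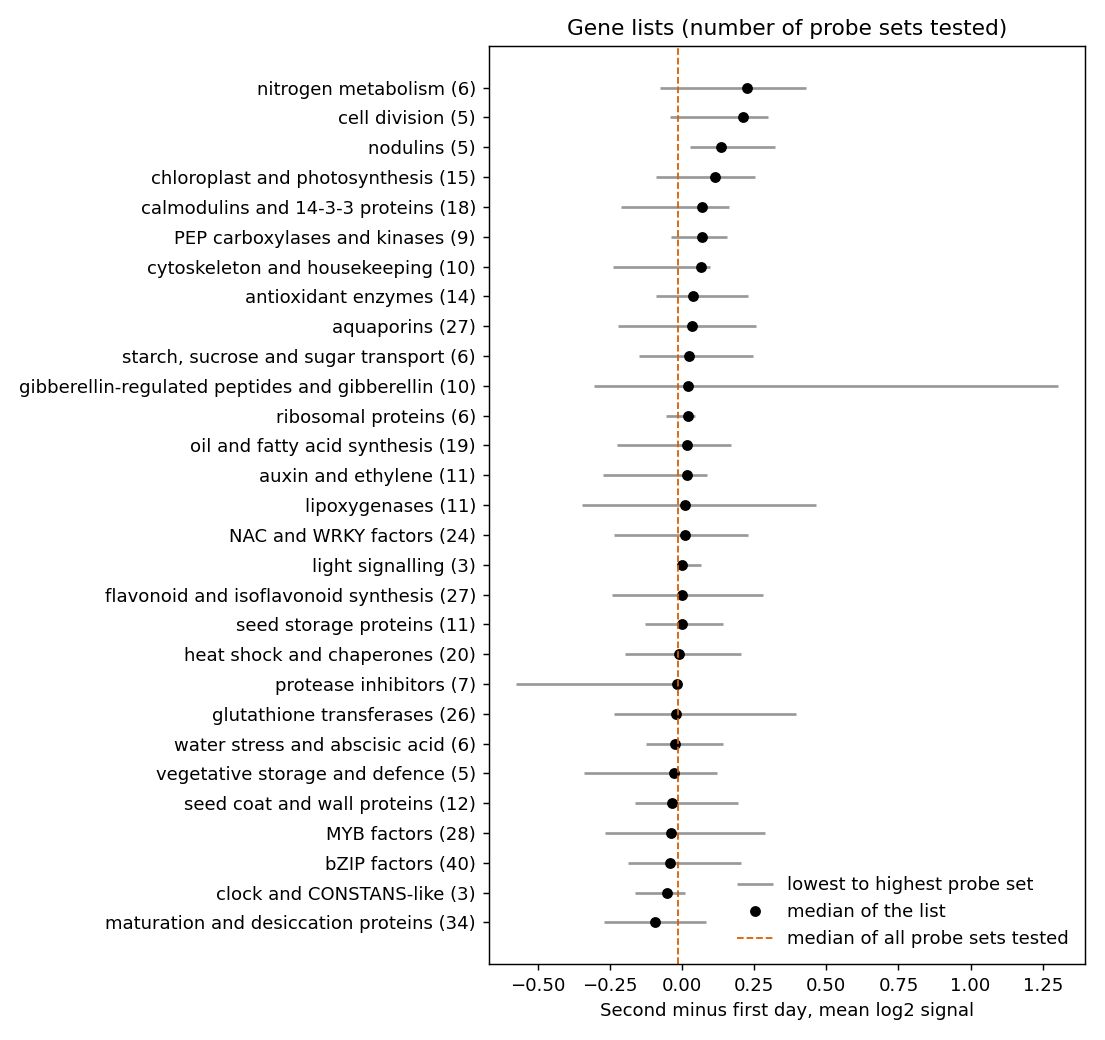
Difference in mean log2 signal, second minus first day, for 29 gene lists; grey lines run from the lowest to the highest probe set, points are list medians, and the dashed line is the median over all tested probe sets (-0.02). Medians run from -0.09 (maturation and desiccation proteins) to 0.22 (nitrogen metabolism), and the line of the gibberellin list reaches 1.30 with GASA4.

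The number of probe sets with a large difference between the days varied with the phase, each phase having 2 arrays a day. Probe sets with a more than 2-fold difference of the means of 2 arrays numbered 60 at dawn (0.523%), 131 at 4 h (1.14%), 203 at 8 h (1.77%), 29 at 12 h (0.253%), 69 at 16 h (0.601%) and 42 at 20 h (0.366%). No probe set passed an F test of the day-by-phase terms (limma, called share 0%; smallest adjusted p 0.294), and 808 had an unadjusted p below 0.05.

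A single contrast set the day difference at 0, 4 and 8 h, the subjective day, against that at 12, 16 and 20 h, the subjective night. It called 9 probe sets (0.0784% of those tested; limma, smallest adjusted p 0.0290), 3 with a more positive difference in the subjective day and 6 with a more negative one. At an unadjusted p below 0.05, 1042 (9.08%) were positive and 334 (2.91%) negative. Both called genes with a name, MAT1 and ERD15, are tied to drying: MAT1 is a dehydrin of the LEA D-11 type and ERD15 is named as early responsive to dehydration. The other 7 had no gene name in the annotation. Of these, 3 had contrasts of 0.67 to 1.33 log2, with mean signals of 4.25 to 5.05, close to the filter at 4. The remaining 4 had contrasts of -2.55 to -1.17, with mean signals of 4.39 to 10.79. By the leading number of their IDs these 4 came from 3 clusters, so they may not be 4 separate transcripts.

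MAT1 in the subjective day ran from 5.64 through a median of 6.14 to 7.82 on the second day and from 6.12 through 8.70 to 10.15 on the first day. In the subjective night it ran from 7.16 through 8.46 to 9.62 on the second day and from 4.61 through 6.67 to 8.62 on the first day. The direction thus turned between subjective day and night, with overlap between the days in each. The mean difference was -2.08 log2 in the subjective day and 1.73 in the subjective night, a contrast of -3.80 ± 0.66 log2 (SE; limma adjusted p = 0.0394). By phase it was -0.43, -3.25 and -2.56 at 0, 4 and 8 h and 0.82, 2.61 and 1.75 at 12, 16 and 20 h. The mean-level difference over all 6 phases was -0.17 ± 0.55 log2 (SE).

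ERD15 showed the same turn at a smaller size. In the subjective day it ran from 7.41 through a median of 7.66 to 7.90 on the second day and from 8.14 through 8.21 to 8.36 on the first day. The days did not overlap there, which the choice of ERD15 by this same contrast favours. How many of all tested probe sets separate in that way was not counted. In the subjective night it ran from 7.84 through 8.03 to 8.71 on the second day and from 7.08 through 7.84 to 8.18 on the first day, with overlap. The contrast was -0.96 ± 0.16 log2 (SE; limma adjusted p = 0.0394), made of -0.57 in the subjective day and 0.39 in the subjective night. The mean-level difference of ERD15 was -0.09 ± 0.14 log2 (SE). CHIA1, an acidic chitinase and the third of the named genes with the smallest p in the F test, had a contrast of -1.69 ± 0.37 log2 (SE; limma adjusted p = 0.108).

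The calls of this contrast rested on the full set of arrays. Leaving out 1 array at a time gave from 0 calls, with each of 11 arrays, to 134, without 68 h replicate 2. The call of ERD15 was lost with each of 21 of the 24 arrays left out, and that of MAT1 with each of 19. The contrast itself stayed between -1.07 and -0.85 for ERD15 and between -4.20 and -3.40 for MAT1. The first replicate of 68 h had 9.62 and the second 7.23 for MAT1, so the replicates of a time also differed.

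The maturation list as a whole moved with these genes. Its mean in the subjective day ran from 11.26 through a median of 11.62 to 11.92 on the second day and from 11.72 through 12.14 to 12.37 on the first day, and in the subjective night from 11.64 through 12.03 to 12.34 on the second day and from 11.32 through 11.65 to 12.03 on the first day. At an unadjusted p below 0.05, 24 of its 34 probe sets had a negative contrast and 0 a positive one, where 2.91% of all tested were negative, and its median contrast was -0.77 log2 against 0.10 over all tested. MAT1 is one of the 34, so the list and MAT1 are not independent. Whether seeds of the arrays differed in maturity, and what part that has in these contrasts, was not tested. SBP65, in the same list, had a contrast of -0.99 ± 0.23 log2 (SE; limma adjusted p = 0.110).

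Other lists had contrasts of the opposite sign, none of them called. Of 11 lipoxygenase probe sets, 5 were positive at an unadjusted p below 0.05 and 0 negative, with a median contrast of 1.03 log2. Aquaporins had 8 positive and 0 negative of 27 and oil and fatty acid genes 5 and 0 of 19, where 9.08% of all tested were positive. Cell division had 4 and 0 of 5, but all 4 were probe sets of the same gene, PCNA. CDC48, the only other gene of that list, had a contrast of -0.01 log2. PCNA differed by 0.51 log2 between the days in the subjective day and by -0.09 in the subjective night, a contrast of 0.60 ± 0.17 (SE; limma adjusted p = 0.180). Flavonoid genes had 3 positive and 6 negative of 27.

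**Figure D5:**
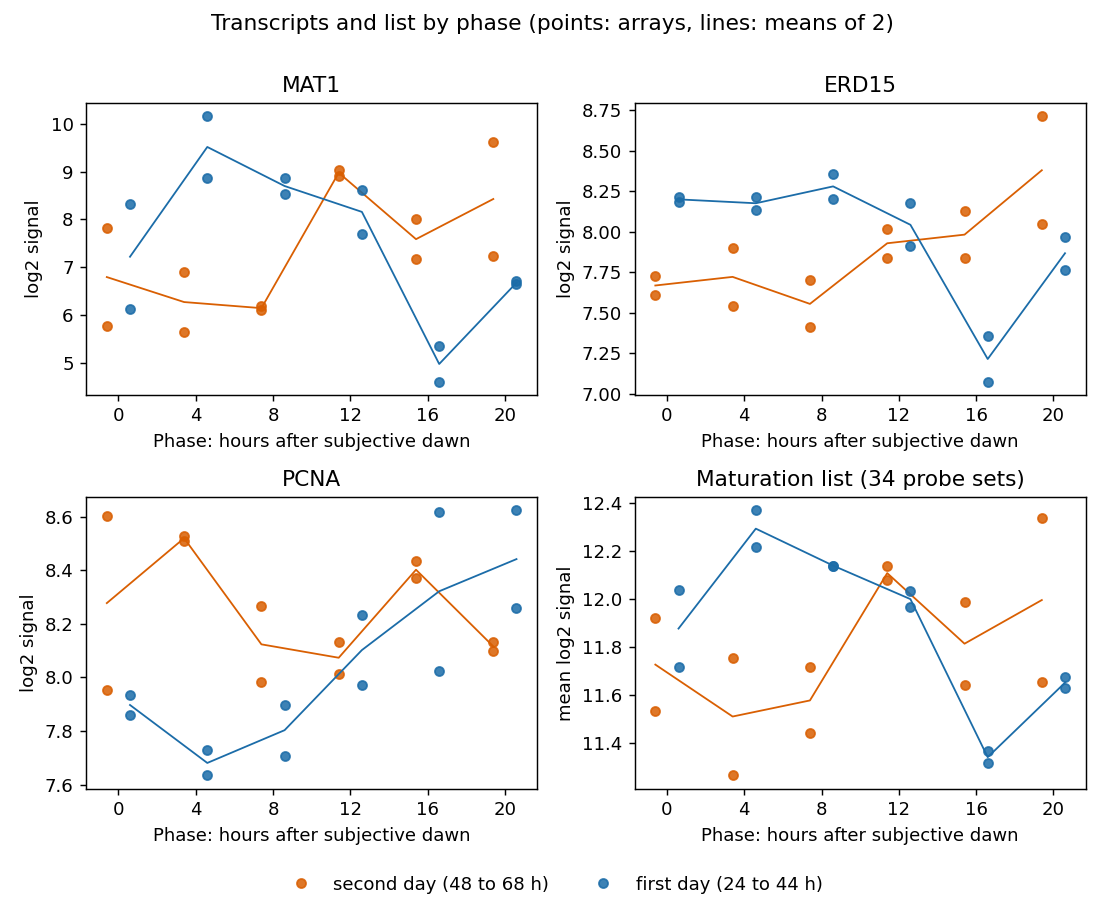
Log2 signal of MAT1, ERD15 and PCNA, and mean log2 signal of the 34 maturation probe sets, against phase in hours after subjective dawn, on the second day (left of each tick) and the first day (right); points are arrays and lines join means of 2. MAT1, ERD15 and the maturation list lie lower on the second day at 4 and 8 h and higher at 16 and 20 h, and PCNA lies higher on the second day at 4 and 8 h.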

How the data were processed

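Total RNA of whole seeds was measured on single-channel oligonucleotide arrays. The authors deposited 1 log2 value for each probe set and array, computed with GCRMA, as the submitters' processing notes state (per the labels). No version of it was given, and the scale was inferred from the lowest and highest values. GCRMA gives weak signals a floor, which compresses their differences. Arrays have no read depth, and the number of arrays limits the precision.

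Probe sets with a mean log2 above 4 over the 26 arrays were tested with limma 3.58.1 in R 4.3.3 (lmFit, eBayes, Benjamini-Hochberg at 0.05) on the 24 arrays, with a day term and a factor of 6 phases. Phase dependence was an F test of the day-by-phase terms, and the subjective day and night contrast was fitted on 12 times. Arrays were grouped by the height of their lowest signal, a property of the values that no label states.

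Names came from the platform annotation (1 symbol for 5002 probe sets, several for 217, none for 11164), of which 4989 were found in a RefSeq table of Glycine_max_v4.0, which changed 0 symbols. Gene functions are textbook background. No probe, promoter or protein sequences were used here. Genes were named by rule: probe sets with 1 symbol, 1 per gene (the highest mean signal), with the same sign in at least 5 of 6 phases, those past the threshold, filled up to 12 in each direction by smallest p; the 2 members of smallest p of each list; LHY; for the phase tests, the named ones past the threshold or the 3 of smallest p; and 2 unnamed probe sets in each direction. Lists took symbols and synonyms by stem. Members and lists were chosen with earlier results of these data known. Alternatives covered the filter, scaling, variance moderation, blocks, array groups, covariates, the handling of phase, and times or arrays left out.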

Additional observations from a re-analysis of the deposited data

Results flagged for a closer look

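The difference between the second and the first day differed between the subjective day and the subjective night for 9 probe sets in a direct test of that difference (limma contrast on 24 arrays). Of the named genes among them, MAT1 had a contrast of -3.80 log2, with second-day values lower at 0, 4 and 8 h and higher at 12, 16 and 20 h. ERD15 had a contrast of -0.96 log2, with a negative difference from 0 to 12 h and a positive one at 16 and 20 h. No explanation was tested for either.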

How the results depend on the processing

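The count of 0 mean-level calls was also obtained under most alternatives. One probe set passed with arrays centred on their medians and 1 without 36 h replicate 2 (range without 1 array 0 to 1), the unnamed Gma.8565.2.S1_a_at both times. With the maturation list mean as a covariate 1 passed, GASA4. There were 2 each with the array group as a block plus centring and with the array median as a covariate, both added after seeing the data. Gma.8565.2.S1_a_at was among the 2 in each, so that it passed in 4 of 46 alternatives. At an unadjusted p below 0.05, the count of 280 higher became 508 with quantile normalization, 554 with centring, 981 on the high floor arrays, 120 without 28 and 52 h, 655 with block and centring, 593 with the array median as a covariate, and 169 to 449 without 1 array. The count of 366 lower became 855 on the low floor arrays, 1067 without 32 and 56 h, 208 without 36 and 60 h, 779 with the maturation covariate, and 256 to 747 without 1 array. The F test gave 0 to 1 calls without 1 array. The 9 calls of the subjective day and night contrast became 0 without the filter, 5 with a filter at 6, and 0 to 134 without 1 array. They became 13 with centring and 13 with the array group as a block, all 9 kept in each. Quantile normalization gave 11, of which 7 were among the 9. There were 0 on the low floor arrays and 1 on the high floor arrays. With 1 array per time, these fits used a phase factor and separate day terms for subjective day and night. With the replicate block the contrast gave 4 calls, 3 of them among the 9, and the mean-level test 0. Replicate numbers paired the samples in part: r of their deviations was -0.34 to 0.61, with a median of 0.08 and over 0.1 in 32 of 66 pairs. For the array groups the median r was 0.16, with 38 of 66 pairs over 0.1. Of 12 times, 11 correlated best with their own number. The main fit had no block for either. The causes were not tested.

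Of 3350 single-gene values under alternatives, 3310 kept direction and side of the threshold and 34 turned sign. All 34 were in genes with a small difference or one that differed between the array groups. Under several alternatives the direction could not change. In this balanced design the filter, variance moderation, a block alone and the handling of phase leave the fitted difference as it was. A linear time term in place of the day term repeats the main fit. On the high floor arrays alone GY3 was -0.0563, LOX7 -0.21, LHY 0.0455, COL10 -0.0246, GmCRY1c1 -0.13, COP10 0.0314, SUT1 -0.0945 and TUBB -0.0124 log2. On the low floor arrays alone NDHK was 0.0671, GY7 0.17, RAR1-1 -0.0934, RPS13 -0.0532, EF1BGAMMA4 -0.0131 and CDC48 0.0225. Without 28 and 52 h COL10 was -0.0388. Without 44 and 68 h COL10 was -0.0227 and COP10 0.00103. Without 32 and 56 h COP10 was 0.00214, ERD15 0.0360 and RAR1-1 -0.00902. With the maturation covariate COL10 was -0.00196, and with centring, with or without the block, COP10 was 0.00396. Without 1 array COL10 ranged from -0.0422 to 0.0574, GmCRY1c1 from -0.00879 to 0.138 and COP10 from -0.0423 to 0.0129.

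A p above the threshold does not show that levels were equal. The 95% intervals limit the mean-level difference to within 1 log2 for 99.7% of the probe sets tested, and the signal floor limits what weak probe sets can show.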

Other observations

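Among probe sets without a gene name, those of smallest p did not pass the main test either (limma), though Gma.8565.2.S1_a_at passed in 4 of 46 alternatives. Gma.8565.2.S1_a_at ran from 8.57 through a median of 8.91 to 9.42 on the second day and from 7.62 through 8.41 to 8.91 on the first day, a difference of 0.54 ± 0.11 log2 (SE; limma adjusted p = 0.374), positive in 6 of 6 phases. Gma.5979.1.S1_at differed by 0.66 ± 0.17 log2 (SE), positive in 5 of 6 phases. In the other direction, Gma.12485.1.S1_at differed by -0.40 ± 0.09 and Gma.3154.1.S1_at by -0.25 ± 0.06 log2 (SE), each negative in all 6 phases.

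The 72 h arrays, which entered neither day, had 12.60 and 12.96 for GASA4, inside the second-day range and above all arrays of 24 to 36 h. For MAT1 they had 5.20 and 9.00, a gap between replicates of one time as wide as most of the range of the second day.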
